A study of Rattus norvegicus with 9 samples.

Results

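The transforming growth factor beta (TGF-beta) and activin system was followed through 10 genes in cultured rat osteoblasts. These were the ligand genes Tgfb1, Tgfb2 and Tgfb3, the genes Ltbp1 and Ltbp2 for latent TGF-beta binding proteins, the receptor genes Tgfbr1, Tgfbr2 and Tgfbr3, the activin subunit gene Inhba, and the follistatin gene Fst. They were taken by gene name, with no measured value in the rule, but were chosen with earlier results of these data known. They are 10 of the 19085 genes in the deposited table. All 10 passed the filter on low counts, as did 13256 genes in all.

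Primary osteoblasts came from the calvaria of male Sprague-Dawley rats aged 24 hours and were used at first passage. The sample labels name the tissue as knee and the extraction protocol speaks of hydrogel groups, whereas the growth protocol names the calvaria and no hydrogel. All 9 cultures were kept for 7 days in induction medium with serum, β-glycerophosphate, ascorbic acid and dexamethasone, so the control group had these agents too. The control group (n = 3) received nothing else, the thrombin group (n = 3) received thrombin at 20 U/mL, and the PD03 group (n = 3) received the same dose of thrombin and, at 0.1 µM, the MEK inhibitor PD0325901, here called PD03. A protocol in the labels writes the PD03 dose as 0.1 mM. No group received PD03 without thrombin, so the PD03 values describe the inhibitor only on top of thrombin. Samples of a group were independent according to the study's methods, but the sources do not say how cells of different animals were divided over the cultures, and p-values measure the spread between these libraries.

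TGF-beta is made as a precursor that stays bound to its own propeptide. Latent TGF-beta binding proteins tether this inactive complex to the extracellular matrix, from which integrins and proteases release the ligand, and bone matrix is a large store of it. The released ligand brings the type II receptor (Tgfbr2) and the type I receptor (Tgfbr1) together, the type I receptor phosphorylates Smad2 and Smad3, and betaglycan (Tgfbr3) presents ligand to the signalling receptors. Activin A, a dimer of Inhba subunits, signals to the same Smads through receptors of its own and is neutralised by follistatin (Fst). In bone, TGF-beta recruits and expands osteoblast precursors and restrains their late maturation.

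Total counts were between 15447832 and 19841468 per library, and replicates differed by more than counting noise. Levels are given as counts scaled to a common library size (CPM) after TMM scaling, and levels of different genes are compared only as FPKM, which divides by gene length. The collagen gene Col1a1 alone took 4.18% to 5.05% of the counts in control and thrombin libraries and 6.78% to 6.96% in PD03 libraries. Early osteoblast genes (Runx2, Sp7, Col1a1, Spp1) were detected in every group, but markers of mature osteoblasts were nearly absent, with at most 5 counts of Bglap, 1 of Ibsp and 4 of Dmp1 in any library. Alpl, the alkaline phosphatase gene of early mineralisation, was scarce, with 19 to 41 counts in control, 6 in each thrombin and 46 to 62 in PD03 libraries, and was called lower with thrombin (log2 fold change -2.24) and higher with PD03 (3.14 against thrombin). Spp1 was called higher with thrombin (1.54) and lower in PD03 against thrombin (-1.80), where Runx2 was also lower (-0.67). Other cell types were followed by their marker lists. The summed level of epithelial and blood markers was 0.174 to 0.607 CPM. The other sums differed between at least some groups, and each was carried largely by 1 gene of its list. Macrophage and osteoclast markers summed to 30.1 to 33.5 CPM in control, 37.7 to 42.4 CPM in thrombin and 26.8 to 28.03 CPM in PD03 libraries. Cd14 made up most of this sum, with means of 20.5, 29.3 and 15.7 CPM in these groups. Acp5 (8.34, 8.27 and 10.7 CPM) and Csf1r (0.440, 0.746 and 1.24 CPM) were instead highest in the PD03 group. Endothelial markers summed to 8.22 to 9.13, 7.49 to 9.95 and 11.4 to 13.4 CPM in the same order, so control and thrombin libraries overlapped. Most of this sum was Tek (6.46, 6.17 and 9.51 CPM). Chondrocyte markers summed to 95.3 to 105, 70.6 to 76.7 and 75.9 to 83.4 CPM, and of the 5 tested, 3 were called higher and 1 lower with thrombin, and 4 higher and 1 lower in PD03 against control. The gene called lower was Col2a1 each time, which held most of the sum (84.4, 49.2 and 56.4 CPM). Smooth and skeletal muscle markers summed to 55.7 to 61.2 CPM in control, 74.9 to 80.9 CPM in thrombin and 136 to 137 CPM in PD03 libraries. Of these 6 markers, 5 were in the table and 3 were tested, and the skeletal muscle regulator Myog had at most 3 counts in any library. Most of this sum was Cnn1 (40.7, 60.1 and 119 CPM). The part of these cell types in the results for the members was not tested. In bulk RNA, fewer cells of a type and less RNA per cell cannot be told apart.

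Each comparison was tested across all 13256 genes, and a call required a Benjamini-Hochberg adjusted p under 0.05 in edgeR's quasi-likelihood test together with a log2 fold change beyond 0.58 in either direction. Between the thrombin group and the control group, 2 members rose (Tgfb1 and Inhba) and 2 fell (Tgfb3 and Tgfbr2), while 8.06% of all tested genes were called (2.62% higher and 5.44% lower). Between the PD03 group and the thrombin group, 2 members rose (Tgfb2 and Tgfb3) and 1 fell (Ltbp1), beside 15.9% of all genes (9.61% higher and 6.31% lower). The same counts held for the PD03 group against the control group, with Tgfb2 and Tgfb3 higher and Ltbp1 lower, beside 8.97% of all genes (4.90% higher and 4.07% lower). Without the fold threshold, 8, 9 and 9 of the 10 members passed in the 3 comparisons, beside 28.7%, 49.8% and 39.9% of all genes. The median log2 fold change of the 10 members was 0.08, 0.12 and 0.15 in the 3 comparisons, beside -0.01, 0.01 and 0.00 for all tested genes. The 3 comparisons share libraries and are therefore not independent of one another.

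**Figure D1:**
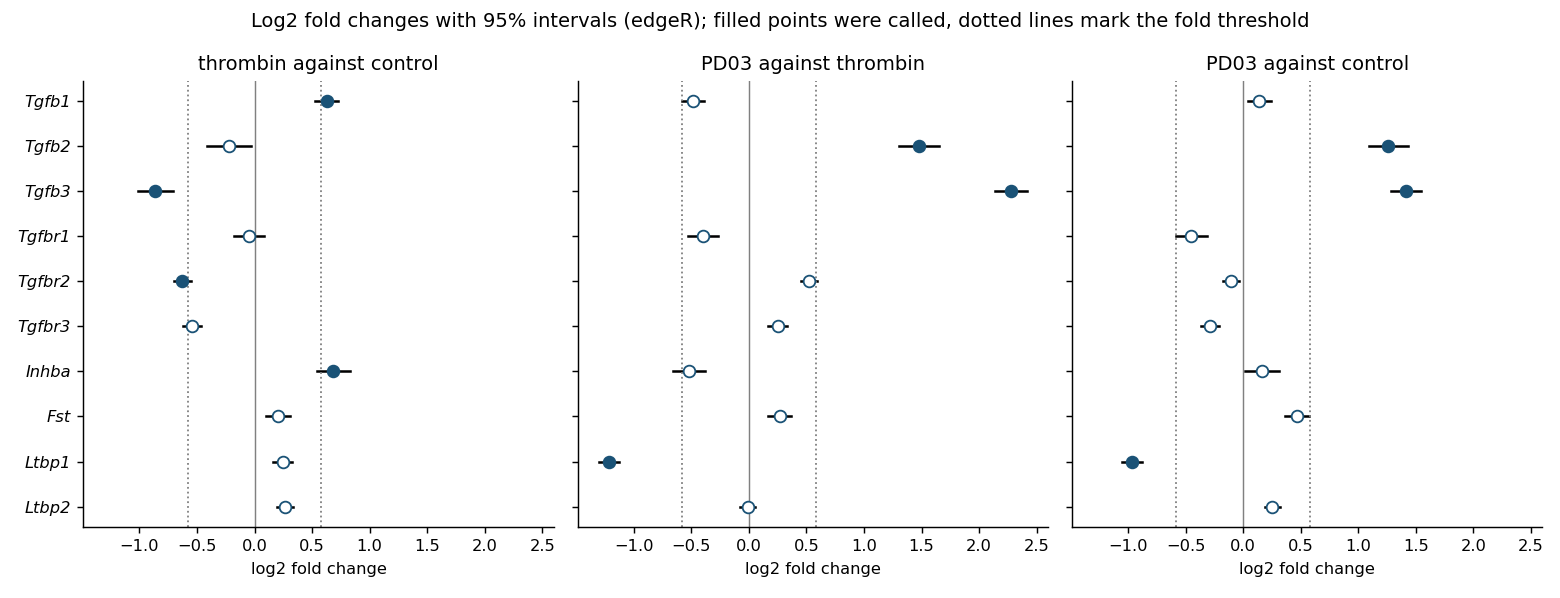
Log2 fold change (horizontal axis) of each member (vertical axis) in the 3 comparisons, with 95% intervals from edgeR. Filled points were called and dotted lines mark the fold threshold. Tgfb3 and Tgfb2 lie far to the right and Ltbp1 far to the left in both comparisons of the PD03 group, whereas Tgfb1, Tgfbr2 and Inhba lie close to the threshold in thrombin against control.

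The ligand Tgfb1, the main TGF-beta isoform of bone matrix, was highest in the thrombin group. It stood at 68.8, 68.0 and 68.6 CPM in the control libraries, 107, 101 and 108 CPM in the thrombin libraries, and 77.9, 72.6 and 75.7 CPM in the PD03 libraries. After TMM scaling the 3 groups did not overlap, with the PD03 libraries between the other groups and closer to control. On FPKM, scaled to library totals, PD03 libraries (47.5 to 50.9 FPKM) overlapped with control libraries (47.9 to 49.2 FPKM). Tgfb1 rose 1.54-fold with thrombin (log2 fold change 0.63 ± 0.05 (SE), edgeR adjusted p = 7.87e-14). Against the thrombin group, the PD03 group differed by -0.49 on the log2 scale (edgeR adjusted p = 3.46e-11), which did not reach the fold threshold. From control, the PD03 group differed by 0.14 on the log2 scale (edgeR adjusted p = 0.0247). This difference depended on the processing and ranged from 0.02 to 0.16 over the 22 alternatives.

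Tgfb3, the isoform known from palate closure and scar-poor healing, had the widest range of group means of the 10 members. The control libraries held 33.9, 41.6 and 37.1 CPM, the thrombin libraries 22.1, 18.6 and 21.2 CPM, and the PD03 libraries 98.3, 100 and 101 CPM. Every thrombin library lay below every control library and every PD03 library lay above them all. Tgfb3 fell 1.82-fold with thrombin (log2 fold change -0.86 ± 0.07, edgeR adjusted p = 9.76e-13). With PD03 it stood 4.84-fold above the thrombin group (2.28 ± 0.07 on the log2 scale, edgeR adjusted p = 1.39e-28). The PD03 group also stood 2.67-fold above the control group (1.41 ± 0.06, edgeR adjusted p = 6.23e-22), so its level lay outside the range of the other groups and not between them.

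Tgfb2, an isoform known from the eye and from heart and skeletal development, was the least abundant ligand. Its libraries held 14.3, 15.2 and 14.3 CPM in the control group, 12.8, 11.8 and 12.9 CPM in the thrombin group, and 32.8, 36.1 and 35.9 CPM in the PD03 group. The control and thrombin libraries lay close to each other without overlap, and the PD03 libraries stood apart from both. With PD03, Tgfb2 stood 2.79-fold above the thrombin group (log2 fold change 1.48 ± 0.09, edgeR adjusted p = 1.34e-18) and 2.39-fold above the control group (1.26 ± 0.08, edgeR adjusted p = 2.82e-16). With thrombin alone its log2 difference from control was -0.22, with a 95% interval from -0.41 to -0.03, and the test was not passed (edgeR adjusted p = 0.0779). The summed muscle markers, given above, were also highest in the PD03 libraries, and their part in the Tgfb2 result was not tested.

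**Figure D2:**
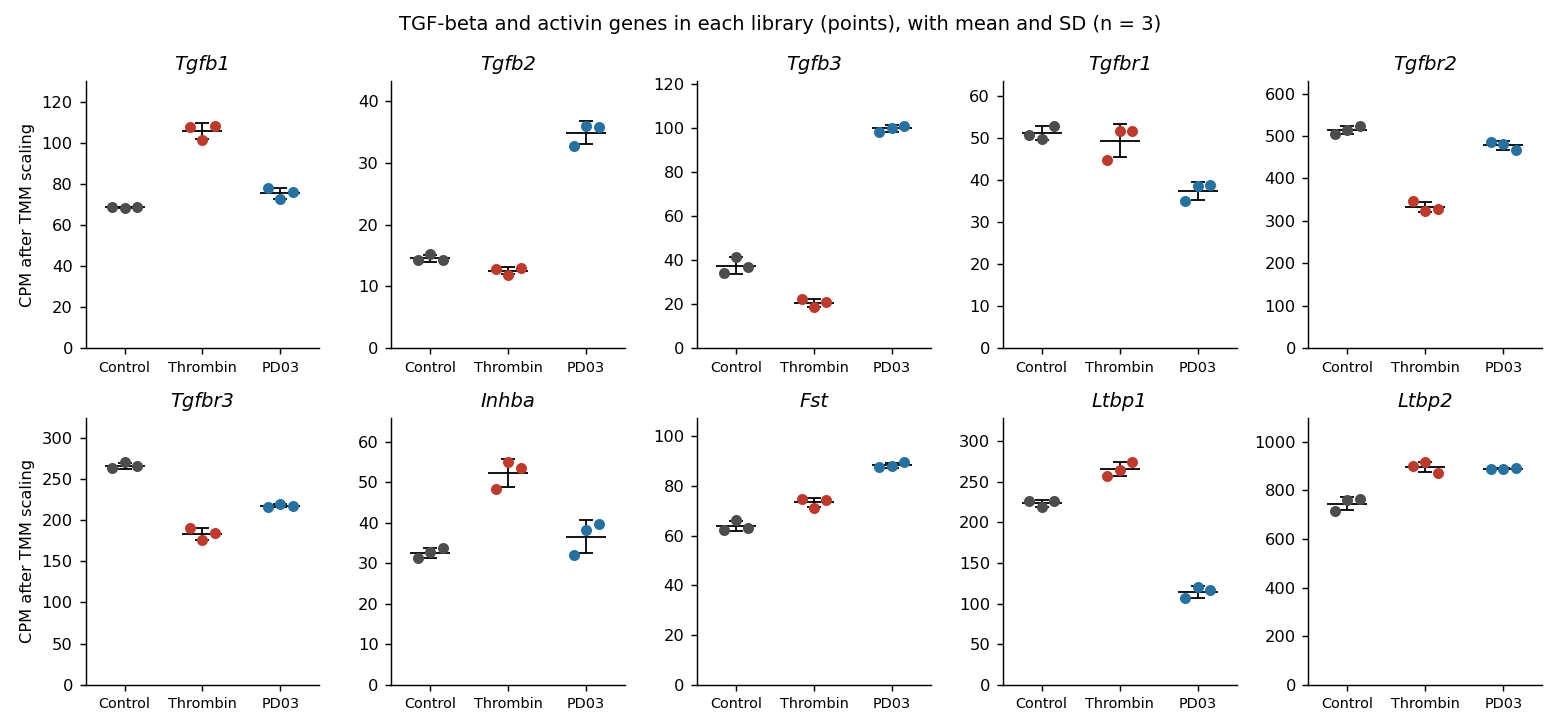
Level of each of the 10 members (vertical axis, CPM after TMM scaling, from 0) in the 9 libraries by group (horizontal axis). Points are libraries, and bars are the mean and SD (n = 3). PD03 libraries of Tgfb3 sit between 98.3 and 101 CPM and those of Ltbp1 between 106 and 120 CPM, clear of both other groups.

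The make-up of the TGF-beta ligand messages was compared per length, within each library, so that it does not depend on how libraries were scaled. Tgfb1 gave 76.1% ± 1.75 (SD, n = 3) of the summed FPKM of the 3 ligand genes in the control group, 89.0% ± 0.437 in the thrombin group and 57.3% ± 1.28 in the PD03 group. Tgfb3 gave 19.6% ± 1.67, 8.17% ± 0.423 and 35.7% ± 0.843 in the same order. The share of Tgfb2 was 4.30% ± 0.0979, 2.80% ± 0.0233 and 7.04% ± 0.440. Per length, Tgfb1 was thus the largest share in every library, from 56.1% to 89.5%. The libraries of any pair of groups did not overlap in any of the 3 shares. Each of these 9 comparisons gave p = 0.1 in a two-sided exact permutation test, which is the smallest value that 3 against 3 libraries allow (Benjamini-Hochberg adjusted p = 0.1).

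The summed FPKM of the 3 ligand genes was 63.7 ± 0.717 in the control group, 83.0 ± 3.26 in the thrombin group and 86.0 ± 1.15 in the PD03 group (SD, n = 3). All 6 libraries with thrombin, from 79.3 to 86.8 FPKM, lay above the control libraries, from 63.2 to 64.5 FPKM. The thrombin and PD03 libraries overlapped in this sum, but only while FPKM were scaled to library totals. Col1a1 took a larger part of these totals in the PD03 group, and its part in the overlap was not tested. With the TMM factors applied, an alternative added after seeing the data, the sum was 60.7 to 62.9 in control, 77.7 to 83.5 in thrombin and 88.8 to 91.2 in PD03 libraries, and no groups overlapped.

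**Figure D3:**
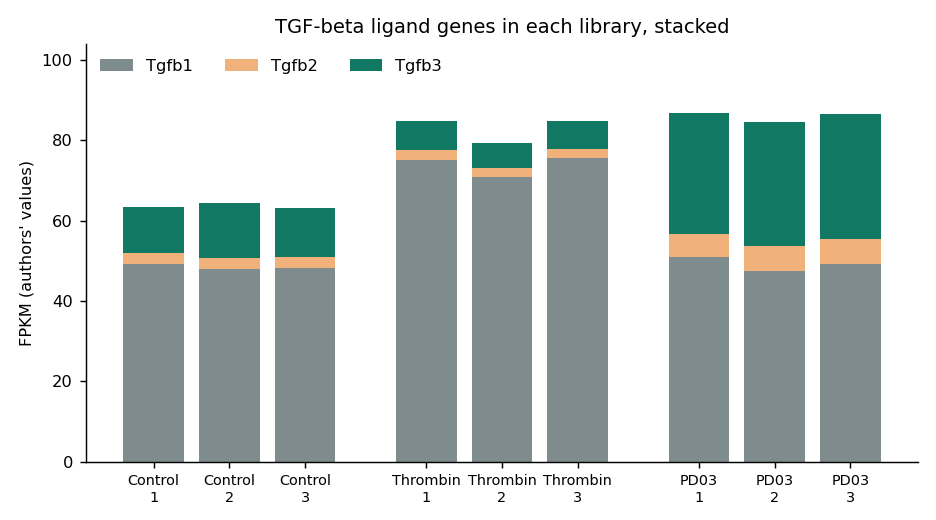
FPKM of Tgfb1, Tgfb2 and Tgfb3 stacked (vertical axis, from 0) for each of the 9 libraries (horizontal axis). The bars of the thrombin and PD03 libraries reach 79.3 to 86.8 FPKM on this scale of library totals, and the Tgfb3 part is 7.74% to 8.59% in the thrombin libraries and 34.8% to 36.5% in the PD03 libraries.

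Of the latency proteins, Ltbp1, which binds the latent TGF-beta complex covalently and anchors it in the matrix, was the only called member, and it was lowest in the PD03 group. It stood at 226, 219 and 226 CPM in the control libraries, 257, 265 and 274 CPM in the thrombin libraries, and 106, 120 and 117 CPM in the PD03 libraries. The PD03 libraries lay far below both other groups, which did not overlap each other either. With PD03, Ltbp1 stood 2.32-fold lower than with thrombin alone (log2 fold change -1.21 ± 0.04, edgeR adjusted p = 7.01e-26) and 1.96-fold lower than in control (-0.97 ± 0.04, edgeR adjusted p = 6.78e-22). The difference between the thrombin and control groups was 0.25 on the log2 scale, under the fold threshold (edgeR adjusted p = 7e-06). With Tgfb3 and Tgfb2 higher and Ltbp1 lower, the FPKM of Tgfb3 exceeded that of Ltbp1 in the PD03 group (30.7 ± 0.429 against 17.4 ± 1.09), whereas Ltbp1 exceeded Tgfb3 in the control group (36.9 ± 0.900 against 12.5 ± 1.19) and in the thrombin group (43.3 ± 1.30 against 6.79 ± 0.592).

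Ltbp2, which binds fibrillin microfibrils but not latent TGF-beta itself, differed less. Its level was 714 to 762 CPM in the control libraries, 872 to 915 CPM in the thrombin libraries and 887 to 891 CPM in the PD03 libraries. After TMM scaling the thrombin and PD03 libraries overlapped, and both lay above control. On FPKM, scaled to library totals, all PD03 libraries (128 FPKM) lay below the thrombin libraries (134 to 142 FPKM). Both still lay above the control libraries (113 to 119 FPKM). The log2 difference from control was 0.26 in the thrombin group (edgeR adjusted p = 1.65e-08) and 0.25 in the PD03 group (edgeR adjusted p = 2.54e-08), both under the fold threshold. Between the treated groups it was -0.01, with a 95% interval from -0.08 to 0.06. With library totals in place of TMM, the latter difference was -0.11 (edgeR adjusted p = 0.00367), also under the fold threshold.

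The stretch before the start of Ltbp1 and of Tgfb1 is shown because these members were called in different comparisons and because their table starts lie at or near the edge of the gene. The sequences are RefSeq's (rat assembly GRCr8), 5′ to 3′ on the gene's strand, for Ltbp1 from position -150 to -46 (chr6:26177347-26177451, minus strand) and for Tgfb1 from -150 to -1 (chr1:90324162-90324311, plus strand), counted back from the table's start. Capitals mark matches to the searched motifs.
Ltbp1: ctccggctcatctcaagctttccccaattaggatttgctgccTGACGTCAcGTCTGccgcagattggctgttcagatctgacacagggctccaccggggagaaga
Tgfb1: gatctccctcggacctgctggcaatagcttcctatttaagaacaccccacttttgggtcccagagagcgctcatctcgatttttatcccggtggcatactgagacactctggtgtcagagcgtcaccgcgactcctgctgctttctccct
The Ltbp1 stretch holds the letters TGACGT, the core of the cyclic AMP response element, on both strands at -108 and -106 (the matches overlap), followed at -99 by CAGAC, the SMAD-binding letters, on the minus strand. The Tgfb1 stretch has none of the 5 motifs searched. A match of letters is not evidence of binding.

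RefSeq windows of 300 bases, from 250 before to 50 after the table's start, were found for 9 of the 10 members (Fst was not in the table) and searched on both strands. TGACGT was in 1 of the 9 (Ltbp1), beside 7.94% of all 33469 windows. The AP-1 letters TGANTCA were in 0 of the 9, beside 7.33% of all windows. The GC box GGGCGG was in 4 (Tgfbr1, Tgfbr2, Tgfbr3 and Ltbp2), beside 33.1%, CAGAC in 3 (Inhba, Ltbp1 and Ltbp2), beside 50.1%, and TATAAA in 1 (Inhba), beside 14.2%. For Tgfb2, Tgfb3, Tgfbr2, Inhba and Ltbp2 the table's start lay 272 to 6434 bases inside the annotated gene, so their windows may not be the main promoter.

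Among the receptors, Tgfbr2, which binds the ligand first and starts signalling, was lower with thrombin. Its libraries held 504, 514 and 525 CPM in the control group, 347, 324 and 328 CPM in the thrombin group, and 486, 480 and 467 CPM in the PD03 group. The thrombin libraries lay well below the others, and the PD03 libraries lay just below control without overlap. Tgfbr2 fell 1.54-fold with thrombin (log2 fold change -0.63 ± 0.04, edgeR adjusted p = 1.75e-18). The PD03 group differed from the thrombin group by 0.52 (edgeR adjusted p = 3.34e-16) and from the control group by -0.11 (edgeR adjusted p = 0.0144) on the log2 scale, both under the fold threshold.

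Tgfbr3, the co-receptor betaglycan that holds all 3 ligands and inhibin, had the same order of groups. Its level was 263 to 270 CPM in control, 175 to 190 CPM in thrombin and 216 to 220 CPM in PD03 libraries, without overlap. The log2 difference between the thrombin and control groups was -0.54 (95% interval -0.62 to -0.46, edgeR adjusted p = 4.1e-15), just short of the fold threshold. It was 0.25 for PD03 against thrombin (edgeR adjusted p = 8.52e-07) and -0.29 for PD03 against control (edgeR adjusted p = 4.06e-08).

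The kinase receptor Tgfbr1, which carries the signal to Smad2 and Smad3, had another pattern. Its level was 49.6 to 52.9 CPM in control, 44.8 to 51.6 CPM in thrombin and 35.0 to 38.7 CPM in PD03 libraries. Control and thrombin libraries overlapped, and all PD03 libraries lay below them. The log2 difference was -0.05 for thrombin against control (95% interval -0.18 to 0.08, edgeR adjusted p = 0.623), -0.40 for PD03 against thrombin (edgeR adjusted p = 1.64e-06) and -0.45 for PD03 against control (edgeR adjusted p = 2.77e-07). Neither of the latter reached the fold threshold.

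In the activin arm, Inhba was highest in the thrombin group. Its libraries held 31.3, 32.7 and 33.7 CPM in the control group, 48.4, 54.9 and 53.5 CPM in the thrombin group, and 31.9, 38.1 and 39.7 CPM in the PD03 group. The thrombin libraries lay above all others, and the PD03 and control libraries overlapped. Inhba rose 1.61-fold with thrombin (log2 fold change 0.68 ± 0.07, edgeR adjusted p = 1.52e-10). The PD03 group differed from the thrombin group by -0.52 (edgeR adjusted p = 3.32e-08), under the fold threshold, and from the control group by 0.16 with a 95% interval from 0.02 to 0.31 (edgeR adjusted p = 0.0724). The call between PD03 and thrombin depended on single libraries, since without thrombin replicate 1 or without PD03 replicate 3 the log2 difference was -0.58, past the threshold (edgeR adjusted p = 9.36e-09 and 3.02e-08).

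Fst, whose product binds activin almost irreversibly, was lowest in the control group and highest in the PD03 group. Its level was 62.3 to 66.2 CPM in control, 71.3 to 74.8 CPM in thrombin and 87.5 to 89.6 CPM in PD03 libraries, and no groups overlapped. Each log2 difference was under the fold threshold, at 0.20 for thrombin against control (edgeR adjusted p = 0.0022), 0.27 for PD03 against thrombin (edgeR adjusted p = 1.82e-05) and 0.47 for PD03 against control (edgeR adjusted p = 3.68e-10).

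The balance of Inhba and Fst messages was compared as the log2 ratio of their FPKM within a library. It was -0.48, -0.50 and -0.39 in the control libraries, -0.11, 0.14 and 0.04 in the thrombin libraries and -0.94, -0.69 and -0.66 in the PD03 libraries. The 3 groups did not overlap, with the thrombin group highest and the PD03 group lowest. Without the log, the mean ratio of Inhba to Fst was 0.730 in control, 1.02 in thrombin and 0.592 in PD03 libraries. Each of the 3 comparisons gave p = 0.1 in a two-sided exact permutation test (adjusted p = 0.1), again the smallest value possible.

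Compared per length, Ltbp2 was the most abundant member in all 3 groups, at 117 ± 3.15, 138 ± 3.62 and 128 ± 0.0220 FPKM (SD, n = 3) in the control, thrombin and PD03 groups. In the control group it overlapped with Tgfbr2 (113 ± 1.47 FPKM), and Tgfbr3, Tgfb1, Ltbp1, Fst, Inhba, Tgfb3, Tgfbr1 and Tgfb2 followed in that order without overlap between neighbours. In the thrombin group Tgfb1 (73.9 ± 2.59 FPKM) and Tgfbr2 (72.4 ± 2.70 FPKM) overlapped in the next place, then came Tgfbr3, Ltbp1, Inhba and Fst (overlapping), Tgfbr1 and Tgfb3 (overlapping), and Tgfb2. In the PD03 group the order was Ltbp2, Tgfbr2, Tgfbr3, Tgfb1, Fst, Tgfb3, Inhba, Ltbp1, Tgfb2 and Tgfbr1, of which only the last pair overlapped. The type II receptor message thus exceeded that of the type I receptor in every group, at 113 against 8.38 FPKM in control, 72.4 against 8.00 FPKM in thrombin and 97.0 against 5.67 FPKM in PD03.

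The libraries of the compared groups did not overlap for 9 of the 10 members in each comparison, beside 40.3%, 55.5% and 47.8% of all tested genes, taking thrombin against control first, then PD03 against thrombin, then PD03 against control. The exceptions were Tgfbr1, Ltbp2 and Inhba in that order. These counts were made after TMM scaling. On FPKM, Ltbp2 did not overlap in PD03 against thrombin, and both Tgfb1 and Inhba overlapped in PD03 against control. Several calls lay close to the threshold. When edgeR's glmTreat tested whether the change exceeded the threshold itself, the calls of Tgfb1 (adjusted p = 0.954), Tgfbr2 (adjusted p = 0.548) and Inhba (adjusted p = 0.426) in thrombin against control were lost, and that of Tgfb3 was kept. With library totals in place of TMM, the median over all genes moved to -0.09 for PD03 against thrombin and -0.12 for PD03 against control, and Tgfb1 (-0.58) and Inhba (-0.62) were called lower in PD03 against thrombin. The share of called genes that were higher in PD03 against thrombin was 60.4% with TMM and 46.5% with library totals, and against control it was 54.6% and 34.1%.

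The other genes of the pathway were followed in lists drawn up by role, and genes called by the same rule are counted here. The counts are to be read beside the shares of all tested genes given above, 8.06% for thrombin against control, 15.9% for PD03 against thrombin and 8.97% for PD03 against control. Of 4 other ligand genes tested, 0 were called in thrombin against control (2 with an unadjusted p under 0.05) and 0 in PD03 against thrombin (4 with an unadjusted p under 0.05) by edgeR, DESeq2 or limma voom, and 1 fell in PD03 against control. This was Inhbb, the other activin subunit, at 120 ± 2.83 CPM in control, 92.5 ± 3.03 CPM in thrombin and 75.0 ± 2.47 CPM in PD03 (log2 fold change -0.68 for PD03 against control, edgeR adjusted p = 1.78e-15). Of 5 other receptor genes, 0 were called by edgeR, DESeq2 or limma voom in thrombin against control (2 with an unadjusted p under 0.05) or in PD03 against thrombin (4 with an unadjusted p under 0.05). In PD03 against control 1 was called, the type I receptor Acvr1, at 69.8 ± 2.70, 80.7 ± 2.10 and 108 ± 1.48 CPM (0.63 for PD03 against control, edgeR adjusted p = 3.37e-14), and this call was lost with library totals.

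Of 12 other latency and activation genes, 2 rose and 1 fell with thrombin (25% called, beside 8.06% of all genes). Lrrc32, which displays latent TGF-beta on the cell surface, rose from 98.8 ± 5.12 CPM to 165 ± 8.44 CPM (log2 fold change 0.74, edgeR adjusted p = 1.02e-16), and the integrin subunit Itgb3 rose from 14.5 ± 1.65 CPM to 22.8 ± 2.14 CPM (0.66, edgeR adjusted p = 6.11e-07). Itgb8, a subunit of an integrin that activates latent TGF-beta, fell from 11.4 ± 1.58 CPM to 6.95 ± 1.27 CPM (-0.73, edgeR adjusted p = 2.58e-05). In PD03 against thrombin, Lrrc32 fell to 98.8 ± 3.75 CPM (-0.74, edgeR adjusted p = 4.54e-17) and Itgb8 rose to 11.7 ± 0.427 CPM (0.76, edgeR adjusted p = 4.95e-06). The other gene called there, where again 25% were called beside 15.9% of all genes, was Fbn2, a fibrillin named after its value was seen (0.63, edgeR adjusted p = 4.77e-20). With library totals the 2 rises and 1 fall in PD03 against thrombin became 1 and 3. In PD03 against control, 0 of the 12 were called by edgeR, DESeq2 or limma voom, and 7 had an unadjusted p under 0.05 in edgeR.

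Of 9 ligand binders and antagonists, 0 were called in thrombin against control by edgeR, DESeq2 or limma voom, and 7 had an unadjusted p under 0.05 in edgeR. In PD03 against thrombin, 2 rose and 0 fell (2 and 1 with library totals), which is 22.2% called, near the 15.9% of all genes. Fmod, a small proteoglycan that binds TGF-beta, stood at 68.9 ± 1.34, 69.2 ± 4.33 and 146 ± 1.31 CPM in the control, thrombin and PD03 groups (log2 fold change 1.08 for PD03 against thrombin, edgeR adjusted p = 3.77e-22). The pseudoreceptor Bambi stood at 13.5 ± 1.46, 11.8 ± 1.33 and 22.1 ± 0.532 CPM (0.90, edgeR adjusted p = 3.9e-10). Both also rose in PD03 against control, as did the follistatin-related gene Fstl3 (9.52 ± 0.435 CPM in control and 19.7 ± 1.89 CPM in PD03, 1.05, edgeR adjusted p = 3.33e-11).

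Of 15 Smads and Smad regulators, 3 rose and 0 fell with thrombin (20% called, beside 8.06% of all genes), and 0 rose and 3 fell in PD03 against thrombin (20%, near the 15.9% of all genes). In PD03 against control 0 were called by edgeR, DESeq2 or limma voom, and 7 had an unadjusted p under 0.05 in edgeR. Pmepa1, a feedback inhibitor that TGF-beta induces, stood at 71.0, 232 and 91.9 CPM in the control, thrombin and PD03 groups (log2 fold change 1.71 with thrombin, edgeR adjusted p = 3.93e-30, and -1.34 for PD03 against thrombin, edgeR adjusted p = 1.64e-27). The co-repressor Skil stood at 74.7 ± 1.56, 133 ± 11.4 and 88.1 ± 13.5 CPM (0.84, edgeR adjusted p = 5.31e-14, and -0.60, edgeR adjusted p = 1.44e-10). Ldlrad4 was the third to rise with thrombin (0.79, edgeR adjusted p = 9.89e-11, named after its value was seen), and the co-repressor Tgif2 the third to fall in PD03 against thrombin (-0.81, edgeR adjusted p = 7.56e-06). The signal carriers themselves were called in no comparison, and Smad2, Smad3 and Smad4, named here for their role, ranged from -0.31 to 0.03 in log2 fold change. Smad3 stood at 83.1, 69.6 and 67.1 CPM in the control, thrombin and PD03 groups. Its log2 difference from control was -0.26 with thrombin (edgeR adjusted p = 0.000139) and -0.31 with PD03 (edgeR adjusted p = 5.06e-06), under the fold threshold. Smad2 and Smad4 passed the test in no comparison. The median log2 fold change of the 15 genes was 0.30 with thrombin and -0.42 when PD03 was added, beside -0.01 and 0.01 for all tested genes, and with library totals 5 genes fell in the latter comparison.

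Of 23 genes that TGF-beta is known to induce in mesenchymal cells, 5 rose and 0 fell with thrombin, 7 rose and 4 fell in PD03 against thrombin, and 6 rose and 0 fell in PD03 against control (5 and 1 with library totals). The shares called were 21.7%, 47.8% and 26.1%, beside 8.06%, 15.9% and 8.97% of all genes. Without the fold threshold, 11 were higher and 8 lower with thrombin, and 9 higher and 10 lower in PD03 against thrombin. In PD03 against control, 14 were higher and 5 lower. All genes passed at 28.7%, 49.8% and 39.9% without the threshold. The median log2 fold change of the 23 genes was -0.004, -0.05 and 0.39, beside -0.006, 0.01 and -0.004 for all tested genes. The list shares Smad7, Skil and Pmepa1 with the one before. The 5 that rose with thrombin were Pmepa1, Skil and, named after their values were seen, the matrix genes Tgfbi (0.94) and Postn (0.77) and the clock-related repressor Bhlhe40 (0.71). Pmepa1, Skil and Bhlhe40 then fell in PD03 against thrombin, as did Timp1 (-0.61). Of the 7 that rose there, Comp, a matrix protein of cartilage and tendon, stood at 3.45, 2.44 and 11.0 CPM in the control, thrombin and PD03 groups (2.16, edgeR adjusted p = 1.72e-14), and the smooth muscle actin gene Acta2 at 627 ± 52.1, 526 ± 19.1 and 1457 ± 17.1 CPM (1.47, edgeR adjusted p = 3.57e-30). The others of the 7, which like Timp1 were named after their values were seen, were Ccn2 (0.79), Tagln (0.81), Col1a1 (0.75), Col1a2 (0.75) and Col3a1 (0.83). The smooth muscle markers Cnn1 (0.99, edgeR adjusted p = 4.48e-20) and Myh11 (0.87, edgeR adjusted p = 6.41e-08) rose in the same comparison. Des, the other tested marker of the muscle list, did not pass (0.11, edgeR adjusted p = 0.555). The part of contractile cells in these rises was not tested.

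**Figure D4:**
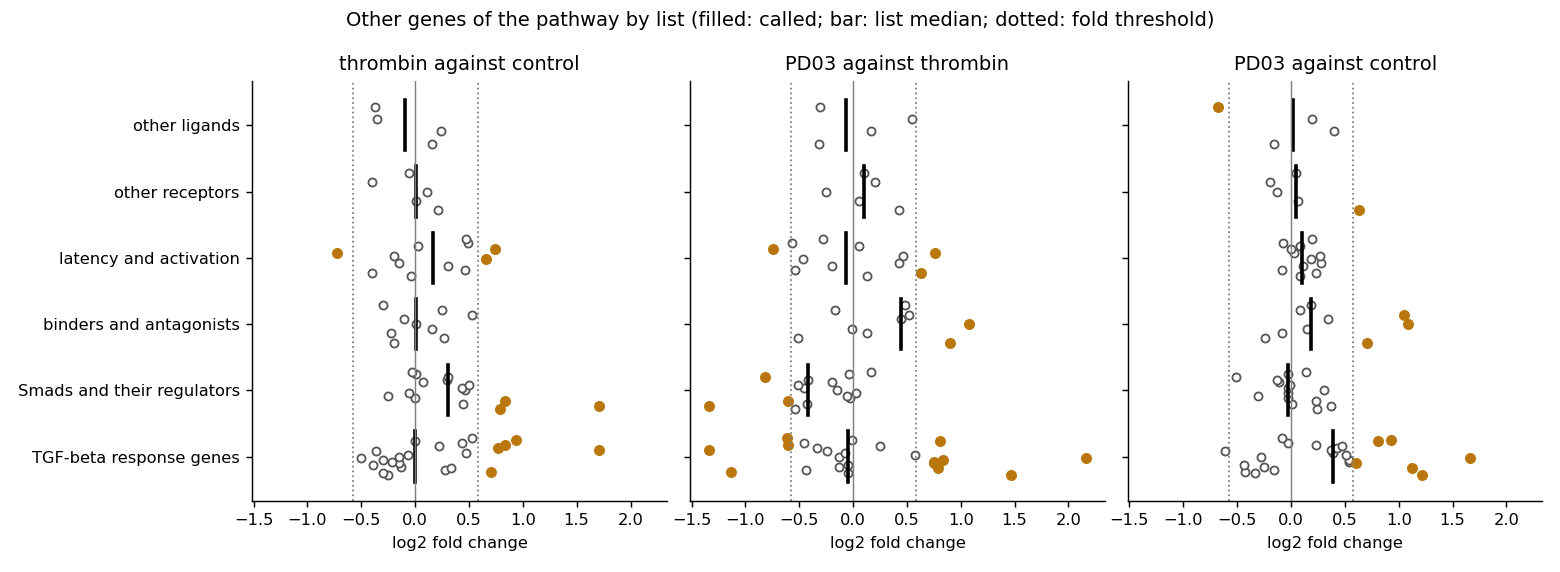
Log2 fold change (horizontal axis) of the other pathway genes by list (vertical axis) in the 3 comparisons. Points are genes, filled where called, bars are list medians and dotted lines the fold threshold. Called Smad regulators lie to the right in thrombin against control and to the left in PD03 against thrombin, and TGF-beta response genes lie on both sides in PD03 against thrombin.

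The genes whose pattern over the 9 libraries was most like that of a member were found by the root mean square difference of log2 CPM, each gene centred on its own mean, over 11922 genes of at least 1 CPM. For Tgfb3 they were Fgfr3, a growth factor receptor of the growth plate (difference 0.14), the ubiquitin ligase gene Fbxo32 (0.15) and C1qtnf3 (0.17). For example, Fgfr3 stood at 15.4 ± 3.05, 8.92 ± 0.927 and 48.6 ± 1.28 CPM in the control, thrombin and PD03 groups. For Tgfb2 they were Acta2 (0.08), Cercam (0.10) and the basement membrane gene Nid2 (0.10). For Ltbp1 they were the cyclin gene Ccnd1 (0.07), the collagen gene Col15a1 (0.07) and the hyaluronidase gene Cemip2 (0.07), and Ccnd1 stood at 86.6 ± 5.37, 94.3 ± 0.746 and 42.1 ± 3.04 CPM. With 3 groups, many genes can share a pattern, and these distances carry no test.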

How the data were processed

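Polyadenylated RNA of 9 cultures was sequenced. According to the paper's methods, the authors trimmed reads with fastp, aligned them to Rnor_6.0 with HISAT2, counted with featureCounts and tested with DESeq2. The submitters' processing notes instead name HISAT2, HTSeq 0.13.5 and mRatBN7.2, so the build and counter remain unresolved here, and no source used here states the strandedness. The authors deposited raw counts and FPKM values per gene and library. The FPKM equalled the deposited count divided by gene length and library total, so they carry no other scaling.

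Counts of genes kept by filterByExpr (minimum count 10; 13256 of 19085) were scaled by TMM and fitted for the 3 groups in 1 model with edgeR 4.0.16 (glmQLFTest, R 4.3.3). P-values were adjusted over all tested genes (Benjamini-Hochberg). SEs are of the log2 fold change, and 95% intervals are not adjusted for the number of genes. Shares and ratios of FPKM were compared by exact permutation tests (scipy 1.17.1), 9 and 3 in number. P-values measure only the spread between these libraries. DESeq2 1.42.0, limma 3.58.1 voom, glmTreat, other scalings, filters and fold thresholds, limma on log2(FPKM + 1) and log2(FPKM + 0.1), the replicate number as a block, fits of 2 groups, and leaving out each library were alternatives, and TMM factors on the summed ligand FPKM were added after seeing the data. The fits were tested on simulated data. The members, lists and tests were chosen with earlier results of these data known. All members are named, and from each pathway list up to 3 genes with the largest called change and at least 1 CPM, other names being marked. The 3 members with the widest range of group means were given nearest patterns. Replicates correlated between groups at -0.0506 to 0.0481 for the same number, so numbers were not taken as pairs. RefSeq windows (GRCr8) were matched by symbol.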

Additional observations from a re-analysis of the deposited data

How the results depend on the processing

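Over 10 members, 3 comparisons and 22 alternatives, 627 of 660 values kept direction and side of the threshold, 23 crossed into a call, 8 lost one and 2 turned sign. The latter were Tgfbr1 in thrombin against control, which ranged from -0.081 to 0.019 with single libraries left out and was positive without thrombin replicate 1, and Ltbp2 in PD03 against thrombin with upper quartile scaling (0.0022), neither of them called. Under all 22 alternatives Tgfb2 and Tgfb3 stayed higher and Ltbp1 lower in both comparisons of the PD03 group, with log2 fold changes of 1.08 to 1.52, 2.03 to 2.32 and -1.31 to -1.16 against thrombin. Ltbp1 against control lost its call at a log2 threshold of 1 (0 members lower). The counts below for stricter or absent fold thresholds follow from the construction of those settings, and for the others the cause was not tested.

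In thrombin against control, members called were 0 higher and 1 lower with glmTreat, 0 and 0 at a log2 threshold of 1, and 5 higher with no fold threshold. Genes called were 147 higher and 313 lower with glmTreat, 133 and 372 at a threshold of 1, 1867 and 1941 with none, and 192 and 351 with log2(FPKM + 1), beside 347 and 721, and 480 were lower at a mean count of at least 50. In PD03 against thrombin, members were 5 higher and 4 lower with no threshold, and 3 were lower with library totals or log2(FPKM + 0.1), 2 with log2(FPKM + 1), and 1 to 2 with single libraries left out. Genes were 671 and 380 with glmTreat, 626 and 309 at a threshold of 1, and 3358 and 3250 with none, and 537 were higher with log2(FPKM + 1), beside 1274 and 836. In PD03 against control, members were 5 and 4 with no threshold. Genes were 286 and 213 with glmTreat, 281 and 238 at a threshold of 1, and 2616 and 2673 with none, beside 649 and 540. Higher genes were 245 with log2(FPKM + 1), and lower genes 908 with library totals and 865 with log2(FPKM + 0.1). With CPM in place of FPKM, the share differences in percentage points were, taking the comparisons in the order used above, 19.3, -40.3 and -20.9 for Tgfb1 and -3.07, 7.58 and 4.51 for Tgfb2, and for Tgfb3 -16.2 and 32.7 in the first 2, since CPM favours long transcripts, and in the PD03 group Tgfb3 (99.9 CPM) then exceeded Tgfb1 (75.4 CPM). With the TMM factors applied to FPKM, added after seeing the data, the summed ligand FPKM differed by 8.92 in PD03 against thrombin, beside 2.97.

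With the replicate number as a block, member calls stayed at 2 and 2, 2 and 1, and 2 and 1, and gene calls were 343 and 724, 1264 and 839, and 649 and 538. The numbers were not taken as pairs, and the block changed no member call. The correlations given above cannot exclude a preparation shared by samples of equal number. In every group, replicates 2 and 3 differed from each other less than either did from replicate 1. Genes of few counts, such as Bglap, were not tested, and the intervals given set the size of difference that these libraries can resolve.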
